A study of Mus musculus with 6 samples.

Results

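The 10 genes described here are Hspa5, Hsp90b1, Calr, Pdia6, Sdf2l1, Dnajb9, Herpud1, Xbp1, Atf4 and Ddit3, which stand for the response of a cell to stress in its endoplasmic reticulum (ER). They are a list of names, chosen with earlier results of these data known, and all 10 were found among the 32246 gene symbols of the count matrices. Their raw UMI counts were read in every immune lineage of 3 single-cell libraries, with plasma cells as the secretory comparison. Ddit3 carries 2 gene IDs in the files, of which the second had 0 UMIs. The other 9 members have 1 ID each.

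The cells came from mouse livers taken at day 30 after infection, and each group is 1 library, which the series text describes as a pool of 3 tumor samples. AAV-sgBaat is an adeno-associated virus with a guide RNA named for Baat, a liver enzyme that conjugates bile acids with amino acids. AAV-sgSCR is labelled as the control virus, and mock livers are labelled as mock infected. Mouse strain, age and the way the tumors arose are not given in the labels. The 3 groups share the dissociation of whole livers with collagenase, a Percoll step and a sort of CD45hi CD3+ T cells and of the remaining CD45hi cells. The series text counts the mock livers among the tumor-bearing ones and also calls them naïve, so whether the mock pool held tumors is uncertain. With 1 library a group there was no replicate, and no test, p-value or standard error was computed. The sequencing depth was 48359443 gene UMIs for AAV-sgBaat, 62570529 for AAV-sgSCR and 32005400 for mock.

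The ER folds proteins that are secreted or sit in membranes. When unfolded protein builds up, 3 sensors in the ER membrane respond. IRE1 splices the mRNA of Xbp1, ATF6 is cut to release a transcription factor, and PERK slows translation while favouring that of Atf4. Hspa5 (BiP) and Hsp90b1 (GRP94) are the main luminal chaperones, Calr is a calcium-binding lectin chaperone, Pdia6 a disulfide isomerase, and Sdf2l1 and Dnajb9 (ERdj4) are partners of BiP. Herpud1 acts in ER-associated degradation. Ddit3 encodes CHOP, a transcription factor downstream of ATF4 that is linked to cell death under prolonged stress. Plasma cells secrete antibody in bulk and depend on XBP1, and so they are the textbook lineage with a large ER. The counts used here measure the Xbp1 transcript as a whole, not its spliced form.

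The promoters are shown for the 5 members that hold an ER stress element. RefSeq promoters of build GRCm38.p6, 300 bases that run from 250 bases before to 50 after the start, matched all 10 members. The ER stress response element (ERSE, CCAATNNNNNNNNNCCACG, searched on both strands) was present in 4 of 10 members, Hspa5, Hsp90b1, Calr and Pdia6, against 0.119% of all 32851 promoters of that length. The related ERSE-II (ATTGGNCCACG, which shares the CCACG end with ERSE) was present in 1 member, Herpud1, against 0.0365% of all promoters. The element TGACGTGG, known as UPRE, was found in 0 of 10 members and 0.676% of all promoters. The C/EBP-ATF type element TGATGNAA was found in 1 member, Herpud1, and 3.97% of all promoters. The 250 bases before the start are given 5′ to 3′ on the strand of the gene, with ERSE, ERSE-II and TGATGNAA matches in capitals. The windows are chr2:34771840-34772089 on the plus strand for Hspa5, chr10:86705445-86705694 on the minus strand for Hsp90b1, chr8:84846932-84847181 on the minus strand for Calr, chr12:17266339-17266588 on the plus strand for Pdia6 and chr8:94386179-94386428 on the plus strand for Herpud1.
Hspa5: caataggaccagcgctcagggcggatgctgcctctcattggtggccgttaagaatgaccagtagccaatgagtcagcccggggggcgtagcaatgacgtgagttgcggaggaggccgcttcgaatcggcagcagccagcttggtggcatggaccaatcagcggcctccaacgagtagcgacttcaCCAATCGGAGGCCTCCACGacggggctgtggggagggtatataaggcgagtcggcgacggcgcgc
Hsp90b1: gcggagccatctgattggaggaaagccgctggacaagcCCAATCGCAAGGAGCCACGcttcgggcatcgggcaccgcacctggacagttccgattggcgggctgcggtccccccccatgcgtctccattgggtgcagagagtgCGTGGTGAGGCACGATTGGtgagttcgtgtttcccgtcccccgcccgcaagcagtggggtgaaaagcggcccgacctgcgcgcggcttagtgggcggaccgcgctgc
Calr: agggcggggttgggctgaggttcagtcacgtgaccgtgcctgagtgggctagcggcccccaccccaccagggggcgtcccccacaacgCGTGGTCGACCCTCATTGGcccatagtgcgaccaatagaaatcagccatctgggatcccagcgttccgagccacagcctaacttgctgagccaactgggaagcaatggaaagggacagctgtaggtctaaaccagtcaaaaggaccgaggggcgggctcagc
Pdia6: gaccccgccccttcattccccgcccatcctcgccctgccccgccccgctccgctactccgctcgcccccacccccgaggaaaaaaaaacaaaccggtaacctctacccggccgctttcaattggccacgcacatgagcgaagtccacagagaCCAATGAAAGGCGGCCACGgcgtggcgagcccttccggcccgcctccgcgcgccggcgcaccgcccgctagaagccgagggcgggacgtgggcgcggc
Herpud1: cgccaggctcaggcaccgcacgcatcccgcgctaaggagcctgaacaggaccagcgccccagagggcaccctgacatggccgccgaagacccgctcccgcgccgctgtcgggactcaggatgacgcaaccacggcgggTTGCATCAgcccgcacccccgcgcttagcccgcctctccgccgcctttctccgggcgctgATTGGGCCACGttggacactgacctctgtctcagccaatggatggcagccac
The ERSE of Hspa5 began 65 bases before the start, that of Pdia6 98 and that of Calr 162, the last on the opposite strand. Hsp90b1 held a pair, at 212 and 107 bases before the start, of which the nearer one lay on the opposite strand. In Herpud1 the ERSE-II began 52 and the TGATGNAA match 112 bases before the start. Sdf2l1, Dnajb9, Xbp1, Atf4 and Ddit3 had no match to any of the 4 elements in this window. A match is a description of letters and no evidence of binding. ERSE and ERSE-II are named for ER stress, and the members were listed as ER stress genes. The shares set beside those of all promoters are therefore no test of enrichment.

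Of the barcodes with at least 500 genes, at least 1000 gene UMIs and at most 10% mitochondrial UMIs, 7094 passed for AAV-sgBaat, 7332 for AAV-sgSCR and 6068 for mock. Each was given a lineage from UMIs of marker genes that are no members. Barcodes that filled the panels of more than 1 lineage made up 18% in AAV-sgBaat, 9.74% in AAV-sgSCR and 4.86% in mock, and they were left out, as were those with no panel. This left 5361, 6210 and 5701 cells in that order of groups. Baat itself had 1, 15 and 5 UMIs over the passing barcodes of AAV-sgBaat, AAV-sgSCR and mock, so in these immune cells it does not check the labels. The AAV-sgBaat library stood apart in other ways. Its B cells held 17.4 CPM (counts-per-million: UMIs of a gene scaled to a fixed total of gene UMIs) of the T cell transcript Cd3e, against 7.43 in AAV-sgSCR and 3.11 in mock, and its CD8 T cells held 78.8 CPM of Dntt, against 3.72 and 3.25. The libraries shared 25 barcodes between AAV-sgBaat and AAV-sgSCR, 17 between AAV-sgSCR and mock and 10 between AAV-sgBaat and mock. A lineage was used in a library where it had at least 20 cells. That gave 16 lineages in AAV-sgBaat, 19 in AAV-sgSCR and 10 in mock, or 45 sums of counts in all. Intervals are exact Poisson intervals for a level, exact conditional intervals for a ratio and Clopper-Pearson intervals for a share, all at 95%, and they cover counting error only. In such sums, fewer cells with a transcript and less RNA per cell cannot be told apart.

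Plasma cells had the highest summed level of the 10 genes in each library in which they could be used. The level was 6849 CPM (interval 6627 to 7076, 27 cells) in AAV-sgSCR and 13927 CPM (13600 to 14260, 29 cells) in mock. The next lineage was basophils and mast cells with 4007 CPM in AAV-sgSCR, and plasmacytoid dendritic cells with 3437 CPM in mock. Plasma cells thus stood above 18 of 18 other lineages in AAV-sgSCR, by 1.71-fold to 10.2-fold, and above 9 of 9 in mock, by 4.05-fold to 10.7-fold. The AAV-sgBaat library had 14 plasma cells, under the minimum, with a pooled level of 8227 CPM. Hspa5, Hsp90b1 and Calr weigh most in the summed level. They had 54017, 49809 and 49332 UMIs over the passing barcodes of all libraries, against 18514 for Atf4, the next member. A summed level can therefore differ from what most members do.

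**Figure D1:**
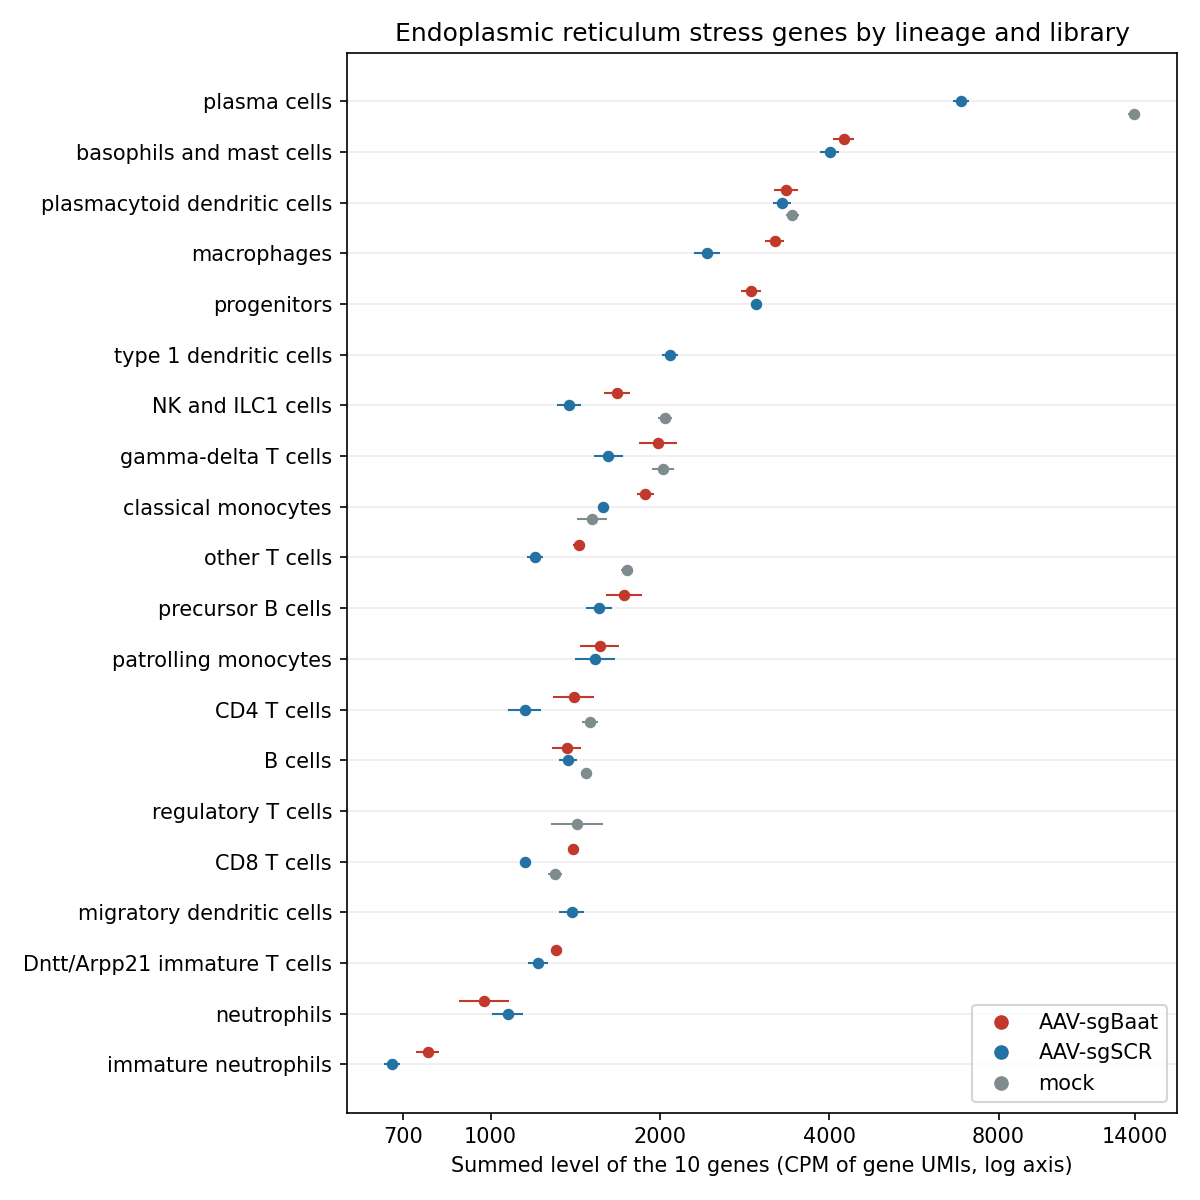
Summed level of the 10 genes in CPM of gene UMIs (log axis) by lineage, with 1 point per library and exact 95% Poisson intervals. Plasma cells lie at 6849 and 13927 CPM and immature neutrophils at 773 and 669 CPM, with basophils and mast cells, plasmacytoid dendritic cells, macrophages and progenitors next to plasma cells.

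Below plasma cells, basophils and mast cells and plasmacytoid dendritic cells led in both virus libraries. In AAV-sgBaat the order ran from basophils and mast cells (4246 CPM) through plasmacytoid dendritic cells (3354), macrophages (3202) and progenitors (2904) to gamma-delta T cells (1984) and classical monocytes (1885). In AAV-sgSCR the same places were held by basophils and mast cells (4007 CPM), plasmacytoid dendritic cells (3294), progenitors (2958), macrophages (2427) and type 1 dendritic cells (2088). The intervals of plasmacytoid dendritic cells and macrophages overlapped in AAV-sgBaat. In AAV-sgSCR no 2 neighbours among the first 6 overlapped. Between gamma-delta T cells at 1620 CPM and B cells at 1373 CPM in AAV-sgSCR, each lineage overlapped the next. CD8 T cells had 1404 CPM in AAV-sgBaat, 1153 in AAV-sgSCR and 1302 in mock. Neutrophils (975 and 1074 CPM in AAV-sgBaat and AAV-sgSCR) and immature neutrophils (773 and 669) were lowest.

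The members divided into groups by how they followed the secretory lineages. Of 178 member-by-lineage values in AAV-sgSCR, 135 (75.8%) were at least 1.5-fold higher in plasma cells than in the other lineage, against 9.77% of all genes, and 12 (6.74%) were at least 1.5-fold lower, against 69.4% of all genes. In mock 71 of 90 (78.9%) were higher, against 11.9% of all genes, and 2 (2.22%) lower, against 60.8%. The low level of most genes in plasma cells goes with their immunoglobulin UMIs, which took 49.8% of the total in AAV-sgSCR and 35.5% in mock. These counts used values with at least 20 UMIs over both sums.

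Xbp1, the transcription factor of the IRE1 arm, had 916 CPM in AAV-sgSCR plasma cells and 864 CPM in mock plasma cells. It was 5.2-fold to 33.4-fold higher in plasma cells than in the other lineages of AAV-sgSCR, and 2.72-fold to 37.1-fold in mock. Plasmacytoid dendritic cells came next in each library, with 182 CPM in AAV-sgBaat, 176 in AAV-sgSCR and 318 in mock. Classical and patrolling monocytes had 146 and 123 CPM in AAV-sgBaat and 151 and 170 CPM in AAV-sgSCR, above B cells with 28.6 and 27.4 CPM in those libraries. In AAV-sgSCR plasma cells and B cells, their precursors, were thus at opposite ends of the order for Xbp1.

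Herpud1, which serves ER-associated degradation, followed the B lineage and plasmacytoid dendritic cells. It had 804 CPM in AAV-sgSCR plasma cells and 499 in mock plasma cells, and plasmacytoid dendritic cells, the next highest, had 204, 273 and 293 CPM in AAV-sgBaat, AAV-sgSCR and mock. B cells had 164, 192 and 101 CPM in the same libraries. Migratory dendritic cells of AAV-sgSCR had 182 CPM. The Dntt/Arpp21 immature T cells of AAV-sgSCR were lowest with 32.2 CPM.

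The chaperones Hspa5, Hsp90b1 and Pdia6 and the BiP partner Sdf2l1 were highest in plasma cells in both libraries. Hsp90b1 had 2375 CPM in AAV-sgSCR plasma cells, against 1015 CPM in plasmacytoid dendritic cells and 98.1 CPM in immature neutrophils. Sdf2l1 had the widest span of the 10 genes over the AAV-sgSCR lineages, 376 CPM in plasma cells against 4.51 CPM in immature neutrophils of AAV-sgSCR, which is 83.4-fold. Hspa5 was only 1.06-fold higher in plasma cells (1052 CPM) than in basophils and mast cells (991 CPM) of AAV-sgSCR, which was within counting error. In mock, plasma cells had 2678 CPM of Hspa5, 3.83-fold above plasmacytoid dendritic cells. Pdia6 had 450 CPM in AAV-sgSCR plasma cells, 356 in progenitors and 22.7 in immature neutrophils.

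Calr, the calcium-binding chaperone, had another order. In AAV-sgSCR it was highest in basophils and mast cells (1327 CPM) and progenitors (1119 CPM), and plasma cells were in place 3 with 676 CPM. In AAV-sgBaat the same cell types led with 1044 and 993 CPM. In mock, where basophils and progenitors were too few to be used, plasma cells led with 1523 CPM.

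Dnajb9, a co-chaperone that also restrains IRE1, spanned 6.11-fold between lineages in AAV-sgBaat, 4.37-fold in AAV-sgSCR and 4.19-fold in mock. Plasma cells had 77.9 CPM in AAV-sgSCR and 130 in mock, close to plasmacytoid dendritic cells with 68.2 and 118 CPM. In AAV-sgBaat neutrophils were highest with 85.2 CPM.

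Atf4 and Ddit3, the transcription factors of the PERK arm, did not follow the secretory lineages. Atf4 lay between 64.8 CPM in type 1 dendritic cells and 155 CPM in B cells of AAV-sgSCR, and plasma cells with 108 CPM were in place 14 of 19. The median ratio of plasma cells to the other lineages was 0.928 for Atf4 in AAV-sgSCR and 1.11 in mock. Ddit3 had a median ratio of 0.454 in AAV-sgSCR and 0.799 in mock. It was at least 1.5-fold lower in plasma cells than in 11 of 18 other lineages of AAV-sgSCR and 2 of 9 of mock. Its highest level in the virus libraries was in neutrophils, with 63.9 CPM for AAV-sgBaat and 57.4 CPM for AAV-sgSCR, and its lowest in progenitors with 11.1 and 6.37 CPM. The Ddit3 level of AAV-sgSCR plasma cells, 13.3 CPM, rested on 7 UMIs.

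**Figure D2:**
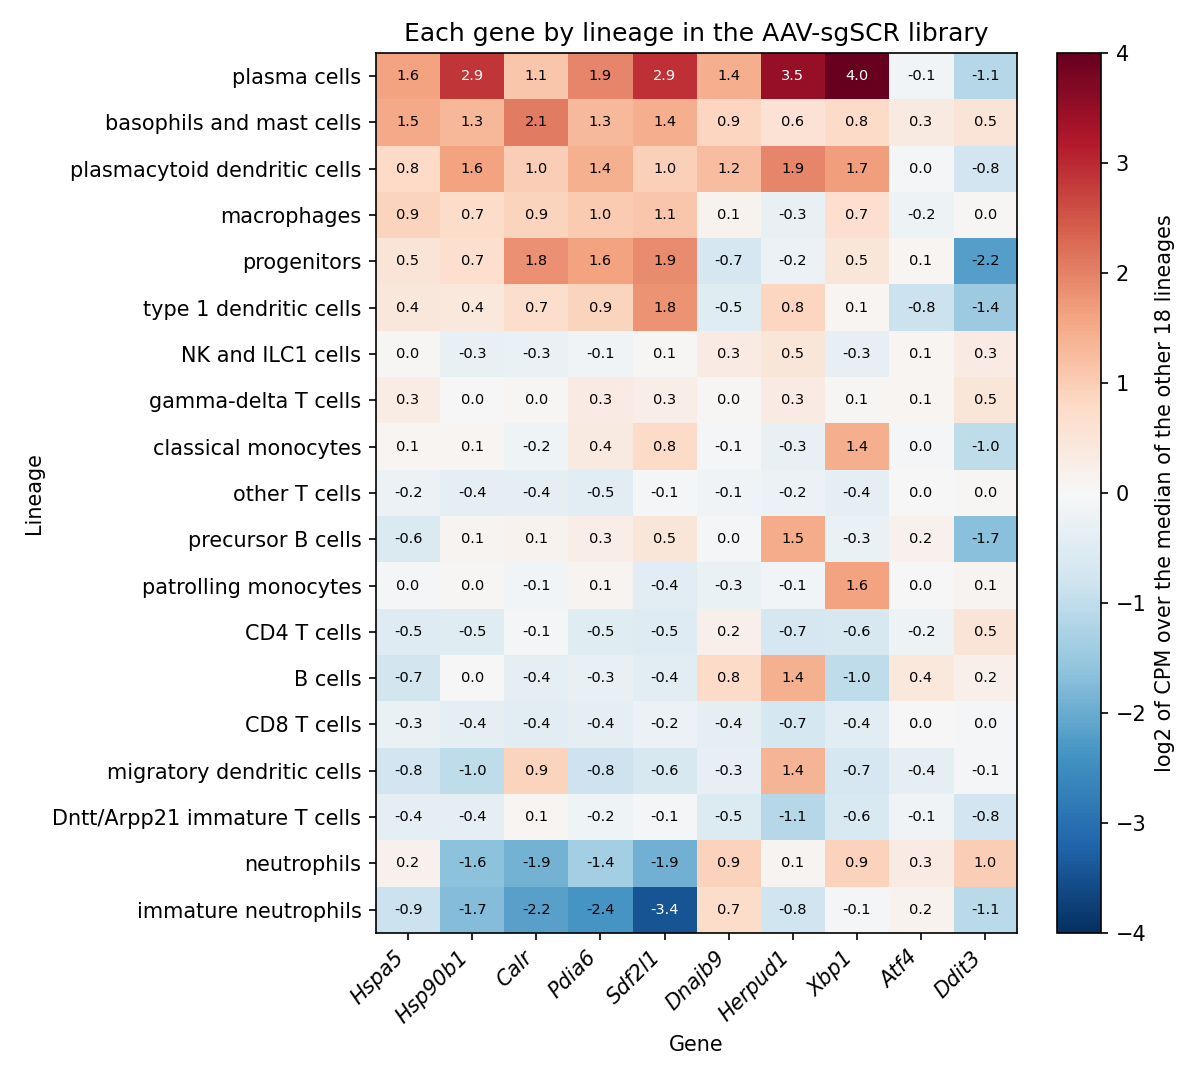
Log2 of the CPM of each gene (columns) in each lineage (rows) of the AAV-sgSCR library over the median CPM of the 18 lineages other than plasma cells. Red is higher and blue lower; the plasma cell row is high for 8 genes, with Xbp1 highest, and not for Atf4 and Ddit3.

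The division can also be read from the members set against each other across the same 45 sums. These coefficients restate the levels above and are no separate evidence. The points share libraries, depth and lineage relations, so the coefficients are descriptions with no p-value. Spearman's rho was 0.93 between Hsp90b1 and Pdia6, 0.93 between Pdia6 and Sdf2l1, 0.84 between Hsp90b1 and Calr and 0.77 between Hspa5 and Hsp90b1 (Pearson's r of log2(CPM + 1) 0.92, 0.92, 0.82 and 0.85). It was 0.42 between Herpud1 and Xbp1 (r 0.62) and 0.44 between Dnajb9 and Atf4 (r 0.52). Against the sum of the other 9 genes, rho was 0.88 for Hsp90b1, -0.02 for Atf4 and -0.15 for Ddit3. Without the plasma cells it was 0.86, -0.04 and -0.09 over 43 points. The 5 members with rho above 0.70 against the others were the 4 genes with an ERSE and Sdf2l1. Sdf2l1 had none in the window searched. A link between the element and these coefficients was not tested.

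Among 5206 genes with at least 20 UMIs in most of the 45 sums, the 10 non-members most like the summed level were Manf, Selenos, Dnajb11, Pdia3, Hyou1, Spcs3, Lman2, Magt1, Bsg and Pdia4. Manf, a secreted ER protein, had a rho of 0.888 and levels of 838 CPM in plasma cells, 116 in CD8 T cells and 37.0 in immature neutrophils of AAV-sgSCR. Selenos (0.874) takes part in ER-associated degradation, Dnajb11 (0.838) is a BiP partner, Pdia3 (0.833) and Pdia4 (0.781) are disulfide isomerases and Hyou1 (0.816) is a luminal chaperone. Spcs3 (0.796) is a subunit of the signal peptidase. In the same ranking Hsp90b1 was gene 1, Dnajb9 gene 1109, Atf4 gene 2711 and Ddit3 gene 3995; members are part of the sum.

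Shares of cells with a UMI were compared after each cell was thinned to 1000 UMIs. Xbp1 was detected in 59.3% of AAV-sgSCR plasma cells (interval 38.8 to 77.6%) and 48.3% of mock plasma cells (29.4 to 67.5%). In B cells the share was 2.74% in AAV-sgBaat, 3.14% in AAV-sgSCR and 2.44% in mock, with median depths of 2047, 2820.5 and 3447 UMIs before thinning against 19408 and 16194 in AAV-sgSCR and mock plasma cells. Without thinning Xbp1 was found in 100% of plasma cells and in 6.38%, 8.58% and 9.10% of B cells of AAV-sgBaat, AAV-sgSCR and mock. Hspa5 was detected in 44.4% of AAV-sgSCR plasma cells (25.5 to 64.7%) and 82.8% of mock plasma cells (64.2 to 94.2%), and unthinned in 88.9% and 100%. In CD8 T cells the thinned Hspa5 share was 27.7% in AAV-sgBaat, 22.1% in AAV-sgSCR and 33.9% in mock, and the unthinned one 76.4%, 70.6% and 84.5%.

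Plasma cells differed among themselves. The summed level per cell ran from 709 to 14524 CPM (median 3005) in AAV-sgBaat, from 2362 to 21310 CPM (median 4884) in AAV-sgSCR and from 1968 to 48351 CPM (median 12321) in mock. The ranges of the libraries overlap, and the mock cells reach the highest values. In AAV-sgBaat the 6 lowest cells, at 709 to 2515 CPM, held only 1113 to 2140 UMIs each, while the other 8 held 8388 to 34762 UMIs, so its low end and median rest on shallow barcodes. Hspa5 had a median of 952 CPM per cell in AAV-sgBaat, 520 in AAV-sgSCR and 1971 in mock.

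**Figure D3:**
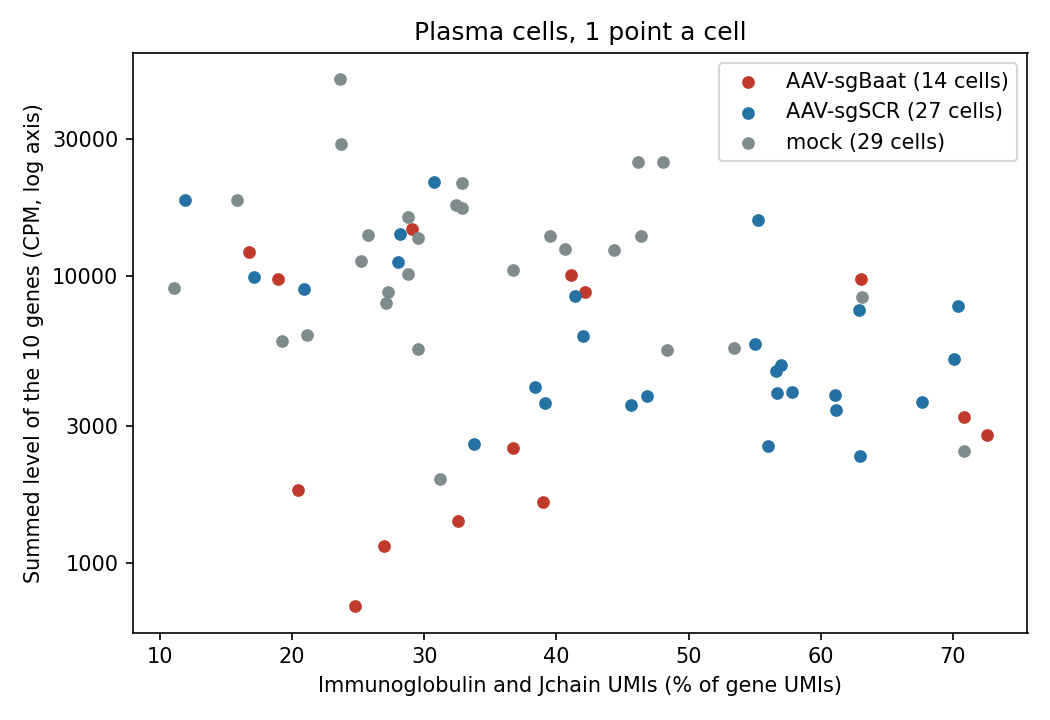
Summed level of the 10 genes (CPM, log axis) against the percent of immunoglobulin and Jchain UMIs in each plasma cell, with 14 AAV-sgBaat, 27 AAV-sgSCR and 29 mock cells. The mock cells have a median of 12321 CPM and the AAV-sgSCR cells one of 4884 CPM, and the AAV-sgSCR cells have the higher median immunoglobulin share.

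In the pooled plasma cells the summed level was 0.492-fold in AAV-sgSCR relative to mock (log2 -1.02, interval -1.08 to -0.97). Of the 10 members, 8 were at least 1.5-fold lower, with Hsp90b1 at log2 -1.47 and Hspa5 at -1.35. Herpud1 was 1.61-fold higher, at 804 against 499 CPM, and Xbp1 was nearly equal at 916 against 864 CPM (1.06-fold). In these cells 37.9% of all genes were also at least 1.5-fold lower, and the median gene lay at log2 -0.40. The isotypes differed: Ighm made up 40009 CPM in AAV-sgSCR plasma cells and 353 in mock ones, while Igha made up 36778 and 53663 CPM. The median immunoglobulin share per cell was 55.1% in AAV-sgSCR and 31.2% in mock. Among plasma cells with mostly Igha heavy chain UMIs, an alternative chosen after seeing the data, the summed level was 9143 CPM in 12 AAV-sgSCR cells and 15607 CPM in 23 mock cells. In this subset Herpud1 was lower in AAV-sgSCR, at 446 against 575 CPM, and Xbp1 was higher, at 1187 against 841 CPM. The directions given above for these 2 genes thus depended on which plasma cells were pooled. Over all genes tested in plasma cells, 24.7% were higher in AAV-sgSCR and most were lower. In the wider lists 16 of 17 tested genes of the ATF6 arm and ER folding list and 15 of 15 of the IRE1 and XBP1 arm list had lower levels in AAV-sgSCR plasma cells (median log2 -0.94 and -0.69), among them Hyou1 (49.4 against 138 CPM) and Derl3 (217 against 483 CPM). With immunoglobulin UMIs taken out of the total, the summed level was 13652 CPM in AAV-sgSCR plasma cells and 21584 CPM in mock ones, a smaller gap in the same direction. Centred on the median of all genes, the log2 ratio was -0.62 in place of -1.02.

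Setting AAV-sgBaat against AAV-sgSCR compares the virus with the guide named for Baat and the control virus, with 1 library each. The guide and any other difference between these libraries cannot be told apart. The summed level was slightly higher in AAV-sgBaat in 13 of 16 lineages, with the interval above 0 in 10 and below 0 in 0. The median of the 16 log2 ratios was 0.18. The ratio was greatest in macrophages (3202 against 2427 CPM, 1.32-fold, log2 0.40, interval 0.31 to 0.49). There 10 of 10 members had the higher level in AAV-sgBaat, against 44.4% of all genes. The interval lay above 0 for Hspa5, Hsp90b1, Calr and Sdf2l1 and spanned 0 for the other members. CD8 T cells had 1404 against 1153 CPM (1.22-fold), and NK and ILC1 cells 1680 against 1379 CPM (1.22-fold). Gamma-delta T cells had 1984 against 1620 CPM (1.22-fold, interval above 0). Of their members 5 were higher and 5 lower, with a median member log2 ratio of 0.02. B cells (1366 against 1373 CPM), neutrophils (975 against 1074 CPM) and progenitors (2904 against 2958 CPM) were lower in AAV-sgBaat by less than their counting error. No lineage reached 1.5-fold in the summed level. Without cycling cells, 80% of the lineages that could be used were higher. Precursor B cells then had the greatest log2 ratio, 0.54 in place of 0.15, ahead of macrophages with 0.45. CD4 T cells had 0.10 in place of 0.29, and Dntt/Arpp21 immature T cells (-0.08 in place of 0.11) and basophils and mast cells (-0.18 in place of 0.08) changed sign.

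Single members reached 1.5-fold higher levels about as often as other genes, and lower levels less often. In this comparison 14 of 159 member-by-lineage values (8.81%) were at least 1.5-fold higher in AAV-sgBaat, against 9.64% of all 122403 gene-by-lineage values. Another 6 (3.77%) were at least 1.5-fold lower, against 14.4% of all genes. The median gene of a lineage moved by log2 -0.15 (immature neutrophils) to 0.02 (gamma-delta T cells).

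**Figure D4:**
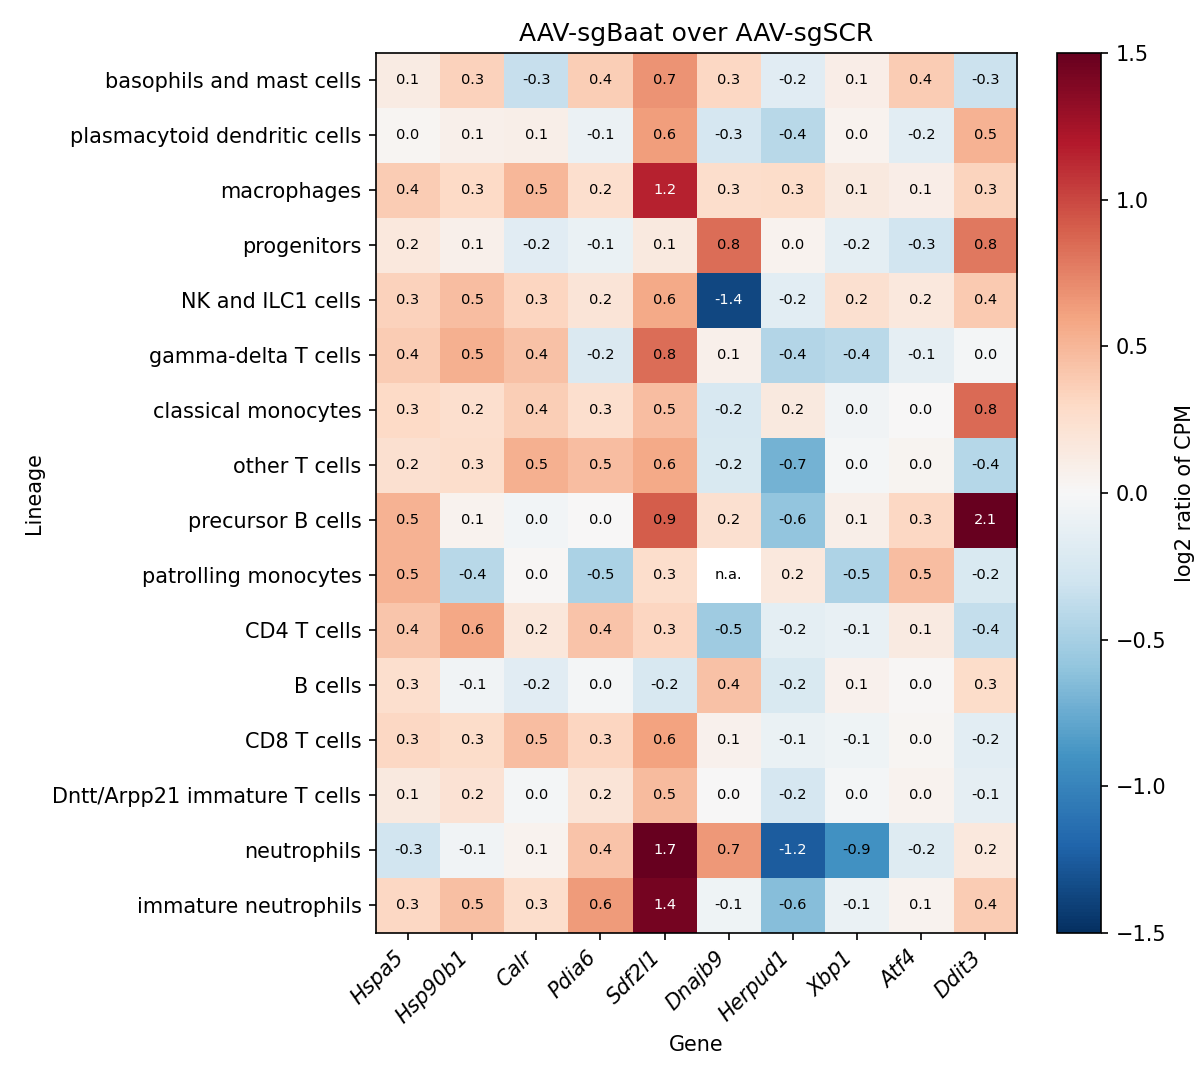
Log2 ratio of CPM in AAV-sgBaat over AAV-sgSCR for each gene (columns) in 16 lineages (rows); n.a. marks a value with fewer than 20 UMIs over both libraries. Sdf2l1 and Hspa5 are higher in 15 of 16 lineages and Herpud1 is lower in 12 of 16.

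Sdf2l1 was the member that reached 1.5-fold in AAV-sgBaat most often, in 8 of 16 lineages, and it was higher in 15 of 16 (median log2 0.59). Macrophages had 237 CPM of Sdf2l1 in AAV-sgBaat and 107 CPM in AAV-sgSCR (2.22-fold, log2 1.15, interval 0.74 to 1.58). CD8 T cells had 63.9 and 41.9 CPM (1.52-fold, interval of the log2 ratio 0.43 to 0.79), and plasmacytoid dendritic cells 147 and 95.5 CPM (1.54-fold). Without CD8 T cells with a UMI of Dntt, Arpp21, Rag1 or Ptcra, chosen after seeing the data, the CD8 levels were 56.8 and 40.3 CPM. That ratio is under 1.5-fold. The thinned share of CD8 T cells with an Sdf2l1 UMI was 3.75% in AAV-sgBaat (interval 2.59 to 5.22%) and 3.21% in AAV-sgSCR (2.49 to 4.06%). The log2 ratio of 1.71 in neutrophils rested on 16 and 12 UMIs. B cells were the exception with 31.1 and 36.7 CPM.

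Hspa5 was higher in AAV-sgBaat in 15 of 16 lineages with a median log2 ratio of 0.30, with the interval above 0 in 13, and never by 1.5-fold. CD8 T cells had 353 CPM in AAV-sgBaat and 286 CPM in AAV-sgSCR. Hsp90b1 was higher in 13 of 16 (median 0.26), Pdia6 in 11 of 16 (0.22) and Calr in 11 of 16 (0.13). In CD4 T cells Hsp90b1 had 350 against 234 CPM (log2 0.58).

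Herpud1 went the other way and was lower in AAV-sgBaat in 12 of 16 lineages, with 4 at least 1.5-fold lower. One of these, precursor B cells at log2 -0.59, stood at 0.51 without cycling cells. Neutrophils had 32.0 CPM in AAV-sgBaat and 75.8 CPM in AAV-sgSCR (log2 -1.25, interval -2.27 to -0.35), and the other T cells had 36.5 and 59.8 CPM (log2 -0.71, interval -1.02 to -0.41). Xbp1 differed little (median -0.04) except in neutrophils, with 55.9 against 105 CPM.

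For Atf4 no interval lay off 0 in any of the 16 lineages, and the median log2 ratio was 0.05. Ddit3 had a higher level in 9 of 16, with 26.4 against 14.6 CPM in classical monocytes (log2 0.85, interval 0.25 to 1.43). In precursor B cells its ratio of 4.29 rested on 17 and 8 UMIs. Dnajb9 in NK and ILC1 cells had 13.9 CPM in AAV-sgBaat and 35.9 CPM in AAV-sgSCR (log2 -1.36, interval -2.46 to -0.39, 11 and 44 UMIs).

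The wider lists give the setting of these values. The PERK and ATF4 arm list had its median above 0 in 12 of 16 lineages, and 50 of 254 values (19.7%) were at least 1.5-fold higher in AAV-sgBaat, against 9.64% of all genes. In CD8 T cells 15 of 21 tested genes were higher (median log2 0.27), with the serine synthesis gene Phgdh at 153 against 75.1 CPM, Psat1 of the same pathway at 37.4 against 21.9 CPM, the transcription factor Atf5 at 8.36 against 3.46 CPM and the amino acid transporter Slc7a5 at 7.15 against 3.46 CPM. The ATF6 arm and ER folding list, which holds no member, had 12 of 241 values (4.98%) at least 1.5-fold higher and 19 (7.88%) lower. The IRE1 and XBP1 arm list had 9 of 227 (3.96%) higher and 23 (10.1%) lower. Of all genes 9.64% were higher and 14.4% lower, so both lists lay under these shares on both sides. The ATF6 list held large ratios in both directions. Lower in AAV-sgBaat were Atf6 itself in neutrophils, with 10.7 against 35.7 CPM, and the disulfide isomerase P4hb in the same cells, with 18.6 against 54.2 CPM. Higher were the chaperone Hyou1 in macrophages, with 46.4 against 16.7 CPM, and Creld2 in precursor B cells, with 44.4 against 17.4 CPM. The AAV-sgBaat levels of Atf6 and P4hb in neutrophils lay below that of Herpud1 there, 32.0 CPM from 12 UMIs, and rested on fewer UMIs still.

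Genes of heat shock and tissue dissociation moved with AAV-sgBaat as well. Their median was above 0 in 16 of 16 lineages. Of 190 values 67 (35.3%) were at least 1.5-fold higher, against 9.64% of all genes, and 5 (2.63%) lower, against 14.4%. In CD8 T cells Hspa1b had 65.2 CPM in AAV-sgBaat and 7.38 CPM in AAV-sgSCR, and in macrophages Hspa1a had 261 and 53.3 CPM. Proliferation genes had a median above 0 in 9 of 15 lineages, among them CD8 T cells with 7 of 7 genes higher, against 45.6% of all genes. Their medians ran from log2 -0.58 in basophils and mast cells to 2.52 in neutrophils, where Top2a had 144 against 22.7 CPM. The neutrophil ratios of Sdf2l1, Herpud1 and Xbp1 thus compare sums that also differ in proliferation genes. Cells with an Hspa1a or Hspa1b UMI were also left out, an alternative chosen after seeing the data. The summed log2 ratio was then 0.41 in macrophages in place of 0.40, and 0.27 in CD8 T cells in place of 0.28. In NK and ILC1 cells it was 0.27 in place of 0.28. In patrolling monocytes it was then -0.21 in place of 0.03, in basophils and mast cells -0.04 in place of 0.08 and in progenitors -0.45 in place of -0.03. This choice kept 580 of 881 CD8 T cells in AAV-sgBaat and 1957 of 2089 in AAV-sgSCR. The part of heat shock genes in the differences between AAV-sgBaat and AAV-sgSCR was not tested. Leaving out CD8 T cells with a UMI of Dntt, Arpp21, Rag1 or Ptcra, also chosen after seeing the data, gave a summed log2 ratio of 0.30 in CD8 T cells. The AAV-sgBaat progenitors had a median of 2023 UMIs and the AAV-sgSCR ones 24738. With the mixed barcodes kept, 94.1% of lineages had a higher summed level in AAV-sgBaat, in place of 81.2%, and 11.3% of member values were at least 1.5-fold higher, in place of 8.81%.

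Setting AAV-sgSCR against mock compares the control virus with mock infection, and 9 lineages could be used. Virus and any difference in tumor state between these livers cannot be told apart. The summed level was lower in AAV-sgSCR in 8 of 9, and the interval lay below 0 in 7. CD8 T cells were among these (log2 -0.18), although 5 members were higher and 5 lower there, with a median member log2 ratio of 0.03. The NK and ILC1 cells had 1379 against 2042 CPM (log2 -0.57, interval -0.65 to -0.49), and the other T cells 1201 against 1745 CPM (log2 -0.54). Classical monocytes had 1587 against 1516 CPM. Of 90 member-by-lineage values 26 (28.9%) were at least 1.5-fold lower in AAV-sgSCR, against 16.9% of all genes, and 5 (5.56%) were higher, against 17.1%. Without plasma cells 18 of 80 (22.5%) were lower, against 15.9%, and 4 higher, against 17.6%. The median gene lay at log2 0.20 in CD8 T cells and -0.18 in NK and ILC1 cells.

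Dnajb9 had the clearest difference. It was lower in AAV-sgSCR in 9 of 9 lineages, by at least 1.5-fold in 8, with a median log2 ratio of -0.998. CD8 T cells had 23.1 CPM in AAV-sgBaat, 22.1 CPM in AAV-sgSCR and 68.7 CPM in mock, which for AAV-sgSCR over mock is a log2 ratio of -1.64 (interval -1.88 to -1.40). B cells had 65.9, 48.8 and 110 CPM in the same libraries, and NK and ILC1 cells 13.9, 35.9 and 66.5 CPM. The thinned share of CD8 T cells with a Dnajb9 UMI was 1.82% in AAV-sgBaat (interval 1.04 to 2.93%), 1.87% in AAV-sgSCR (1.33 to 2.54%) and 7.76% in mock (5.67 to 10.3%), and the unthinned share 14.8%, 14.1% and 33.8%. Classical monocytes, the lineage in which 1.5-fold was not reached, had 23.2, 27.5 and 31.0 CPM.

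Atf4 was also lower in AAV-sgSCR in 9 of 9 lineages, by at least 1.5-fold in 5, and Hspa5 in 8 of 9, by at least 1.5-fold in 5. Atf4 in gamma-delta T cells had 112 CPM in AAV-sgBaat, 123 in AAV-sgSCR and 228 in mock (log2 of AAV-sgSCR over mock -0.89, interval -1.28 to -0.52). Hspa5 in the other T cells had 346, 293 and 556 CPM (log2 -0.93, interval -1.04 to -0.81).

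**Figure D5:**
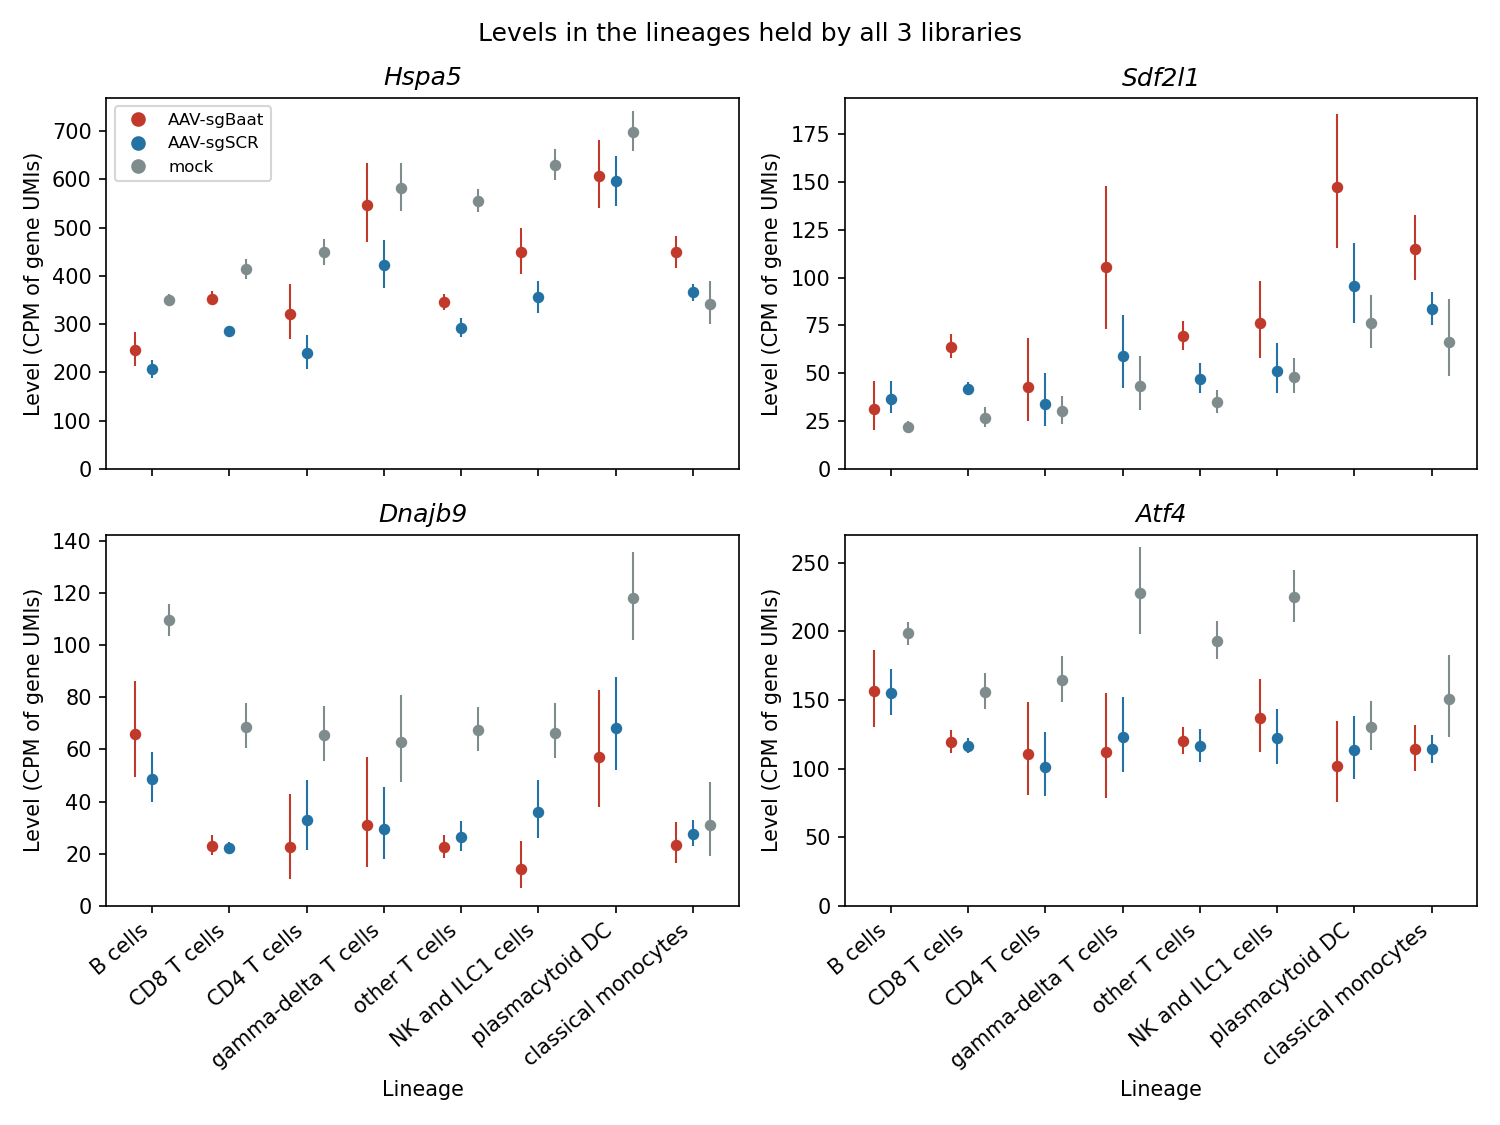
Levels of Hspa5, Sdf2l1, Dnajb9 and Atf4 (CPM of gene UMIs, linear axes) in the 8 lineages that AAV-sgBaat, AAV-sgSCR and mock all hold, with exact 95% Poisson intervals. Dnajb9 and Atf4 are highest in mock in 8 of 8 lineages, and Sdf2l1 is higher in AAV-sgBaat than in mock in 8 of 8.

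Sdf2l1 went against these genes. It was higher in AAV-sgSCR than in mock in 8 of 9 lineages, all but plasma cells. The interval lay above 0 in only 3 of them, and 1.5-fold was reached in 2. In AAV-sgBaat it was higher than in mock in 8 of 8, by at least 1.5-fold in 6. CD8 T cells had 63.9 CPM in AAV-sgBaat, 41.9 in AAV-sgSCR and 26.8 in mock. The log2 ratio of AAV-sgBaat over mock was 1.25 there (interval 0.93 to 1.58) and 1.29 in gamma-delta T cells. Xbp1 in CD8 T cells had 39.4, 41.1 and 23.3 CPM, and in plasmacytoid dendritic cells 182, 176 and 318 CPM, so it differed in opposite directions in these lineages. Herpud1 in B cells had 164, 192 and 101 CPM.

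For AAV-sgBaat over mock, which shares its libraries with the other comparisons, 11 of 80 member values (13.8%) were at least 1.5-fold higher, against 19.6% of all genes, and 14 (17.5%) were lower, against 22.1%. Dnajb9 was lower in 8 of 8 lineages, by at least 1.5-fold in 7, and Atf4 in 8 of 8, by at least 1.5-fold in 3. Both shares of members lie below those of all genes.

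Other gene groups moved with the comparison to mock. Heat shock and dissociation genes had a median below 0 in 9 of 9 lineages for AAV-sgSCR over mock, from log2 -0.09 in plasma cells to -1.12 in B cells, where 12 of 12 were lower. Proliferation genes had a median above 0 in 8 of 9, and B cells held 306 CPM of Pclaf in AAV-sgSCR against 1.83 in mock. In CD8 T cells 62.7% of all genes were higher in AAV-sgSCR, with a median of log2 0.20. There the IRE1 and XBP1 arm list was higher for 13 of 16 genes (median log2 0.46), the ATF6 arm and ER folding list for 14 of 17 (0.39, with P4hb at 83.5 against 39.5 CPM) and the PERK and ATF4 arm list for 17 of 21 (0.42, with the cystine transporter Slc7a11 at 11.0 against 0.541 CPM), while Hspa5, Dnajb9 and Atf4 were lower. The mock level of Slc7a11 rested on very few UMIs. The part of heat shock genes and of cell states in the differences between AAV-sgSCR and mock was not tested.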

How the data were processed

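Gene counts of 3 mRNA libraries of mouse liver immune cells were used. The authors deposited filtered matrices of raw UMI counts made with Cell Ranger 6.0.1, per the file headers, on mm10, per the submitters' processing notes. The antibody libraries were not used here. Barcodes with at least 500 genes, at least 1000 gene UMIs and at most 10% mitochondrial UMIs were kept. Lineages were set from marker UMIs per 10000, with minima set after looking at marker counts and not at member values. Some markers were dropped because other lineages shared them. Plasma cells needed at least 10% immunoglobulin UMIs and 5 Jchain UMIs. No doublet caller was run; barcodes of mixed lineage were left out. Counts were summed by lineage and library and divided by all gene UMIs (CPM). Past the fold means at least 1.5-fold with at least 20 UMIs over both sums, and a count of 0 stood as 3. With 1 library a group, no test was run. The members and lists were chosen with earlier results of these data known. All members are named; of each wider list, genes were named from the 4 with the largest ratio in a lineage, and of the other genes the 10 most like the summed level. Intervals and the thinned shares cover counting error only, and which alternatives were tried is given with their values at the end. The ratios were tested on simulated data. Python 3.11.15, numpy 2.4.6, scipy 1.17.1, pandas 2.3.3 and matplotlib 3.10.9 were used.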

Additional observations from a re-analysis of the deposited data

Results flagged for a closer look

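The values here are members whose ratio lay above 0 in one lineage and below 0 in another under the same comparison, with both counting intervals off 0. The highest and the lowest such value are given. In each case the difference between the lineages was not tested, since each group is 1 library.

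For AAV-sgBaat over AAV-sgSCR, the log2 ratio of Hsp90b1 was 0.581 in CD4 T cells and -0.421 in patrolling monocytes. That of Calr was 0.532 in other T cells and -0.345 in basophils and mast cells. Dnajb9 had 0.84 in progenitors and -1.36 in NK and ILC1 cells, and Ddit3 had 2.1 in precursor B cells and -0.422 in other T cells.

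For AAV-sgSCR over mock, plasma cells went against another lineage for 4 chaperones and BiP partners. Hsp90b1 had a log2 ratio of 0.486 in B cells and -1.47 in plasma cells, and Calr 0.393 in plasmacytoid dendritic cells and -1.17 in plasma cells. Pdia6 had 0.574 in CD8 T cells and -0.888 in plasma cells, and Sdf2l1 0.741 in B cells and -0.75 in plasma cells. Herpud1 had 0.929 in B cells and -0.667 in classical monocytes. Xbp1 had 0.821 in CD8 T cells and -0.851 in plasmacytoid dendritic cells.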

How the results depend on the processing

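No paired analysis was possible because each group is 1 library. Plasma cells exceeded CD8 T cells in the summed level by log2 2.57 in AAV-sgSCR and 3.42 in mock. In AAV-sgSCR this was 2.38 with mixed barcodes kept, 2.44 with doubled marker minima, 3.49 without mitochondrial, ribosomal and immunoglobulin UMIs and 2.71 as a mean over cells. In mock it was 3.83 without those UMIs, 3.48 after thinning to 1000 UMIs and 3.58 with mostly Igha plasma cells (chosen after seeing the data). For AAV-sgBaat over AAV-sgSCR, thinning gave 19.0% of member values at least 1.5-fold higher, in place of 8.81%, and 8.26% lower, in place of 3.77%; without cycling cells 6.94% were lower. For AAV-sgSCR over mock, 11.1% of lineages had a higher summed level, against 0.0% with doubled marker minima or as a mean over cells and 22.2% without those UMIs. Its member values at least 1.5-fold higher, 5.56%, were 2.22% with doubled minima or as a mean over cells, 10.1% after thinning and 3.33% without cells with an Hspa1a or Hspa1b UMI (chosen after seeing the data). For AAV-sgBaat over mock, 25% of lineages were higher, against 50% without those UMIs and 12.5% after thinning, and 17.5% of member values were lower, against 27.0% with doubled minima. Herpud1 in precursor B cells, log2 -0.589 for AAV-sgBaat over AAV-sgSCR, was 0.512 without cycling cells. Of 76 member values past 1.5-fold, 60 could be computed after thinning, of which 60 had the same sign and 45 were still past it. The causes were not tested. Low counts limit single values, such as Ddit3 in AAV-sgSCR plasma cells with 7 UMIs.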
